A study of Homo sapiens with 10 samples.

Results

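Kuramochi is an established human line of ovarian carcinoma, labelled epithelial and BRCA2-mutant, and the cells described here came from the library of the population exposed to 2.5 µM olaparib until confluency. The authors' metadata table gives 760 of the 1561 cells of this library a state, 626 cells S1 and 134 cells S2, and the 134 S2 cells were compared with the 626 S1 cells of the same library. Both states share the library, and with it the labels of line, genotype, drug and dose. The whole series holds 18209 cells, of which 8240 have a state, in 10 populations of 1 serial escalation: untreated cells (C) and cells at 1, 2.5, 5, 10, 20, 40, 80, 160 and 320 µM olaparib. Each population is 1 library made by inDrop, in which a cell and a barcoded bead share a droplet and each captured molecule is counted as a molecular identifier (UMI). The sources used here do not say how the states were assigned. If expression of these cells was used, the differences below partly restate the assignment, and they are given as a description without any test.

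Olaparib blocks PARP enzymes, which mark DNA strand breaks for repair, and trapped PARP leaves lesions that cells without BRCA2 repair poorly. High-grade serous carcinoma cells of the ovary usually keep genes of the Müllerian epithelium, such as PAX8, SOX17 and WFDC2, beside simple keratins. Carcinoma cells can also take up part of a mesenchymal programme, with smooth muscle actin, transgelin, fibrillar collagens and targets of TGF-beta, or an interferon programme, in which antiviral genes and the HLA class I chains are raised.

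State S2 made up 17.6% of the listed cells at 2.5 µM (134 of 760, exact binomial 95% interval 14.99 to 20.5). At 1 µM all 1223 listed cells were S1. At 5 µM S2 was 54.0% of the listed cells (215 of 398, 49.0 to 59.0), and at 10 µM 66.8% (688 of 1030), with S3 and S4 as the other states. Within the escalation, 2.5 µM was the lowest dose with any listed S2 cell, and S1 was listed in no library above 5 µM. These intervals, and all intervals below, cover counting error only. Those of folds and of UMI shares treat UMIs as independent and leave out the spread between cells. Each dose has 1 library, so the spread between cultures could not be measured.

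The S2 cells gave 343794 UMIs and the S1 cells 1432780. The median cell held 1554.5 UMIs and 945 genes in S2 against 1313.5 UMIs and 846 genes in S1, with 7.68% and 8.01% mitochondrial UMIs. The 801 cells of the library without a state were shallower, with a median of 1029 UMIs. They also held more cell-cycle transcripts: G2/M genes were 0.798% of their UMIs, against 0.222% in S1 and 0.213% in S2, and G1/S genes 0.481% against 0.148% and 0.127%. None of the 134 S2 cells shared a barcode with a cell of the 5 or 10 µM library, and at most 4 did with any other library. Of the 626 S1 cells, 4 to 10 shared one with a given library.

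UMIs were summed over the cells of each state and scaled to a common total, as CPM, so that a value is a share of the UMIs of its state. Differences are S2 minus S1 of log2(CPM + 10), which understates the change of genes at low levels. A gene was measured if it reached 100 CPM in at least 1 state with at least 20 UMIs in all, which held for 2080 of the 12373 genes. At a low level a gene could be measured only through the state where it was higher. Counts and list medians below thus lean toward genes that differ. A measured gene was counted as higher or lower at a difference of 1 or more. By this rule 68 genes were higher in S2 (3.27% of the measured genes) and 63 were lower (3.03%). The median difference over all measured genes was 0.00, and 1588 of the 2080 lay within 0.5 of 0. With TMM scaling the split was 84 higher and 48 lower, and the median of all measured genes stood at 0.10.

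**Figure D1:**
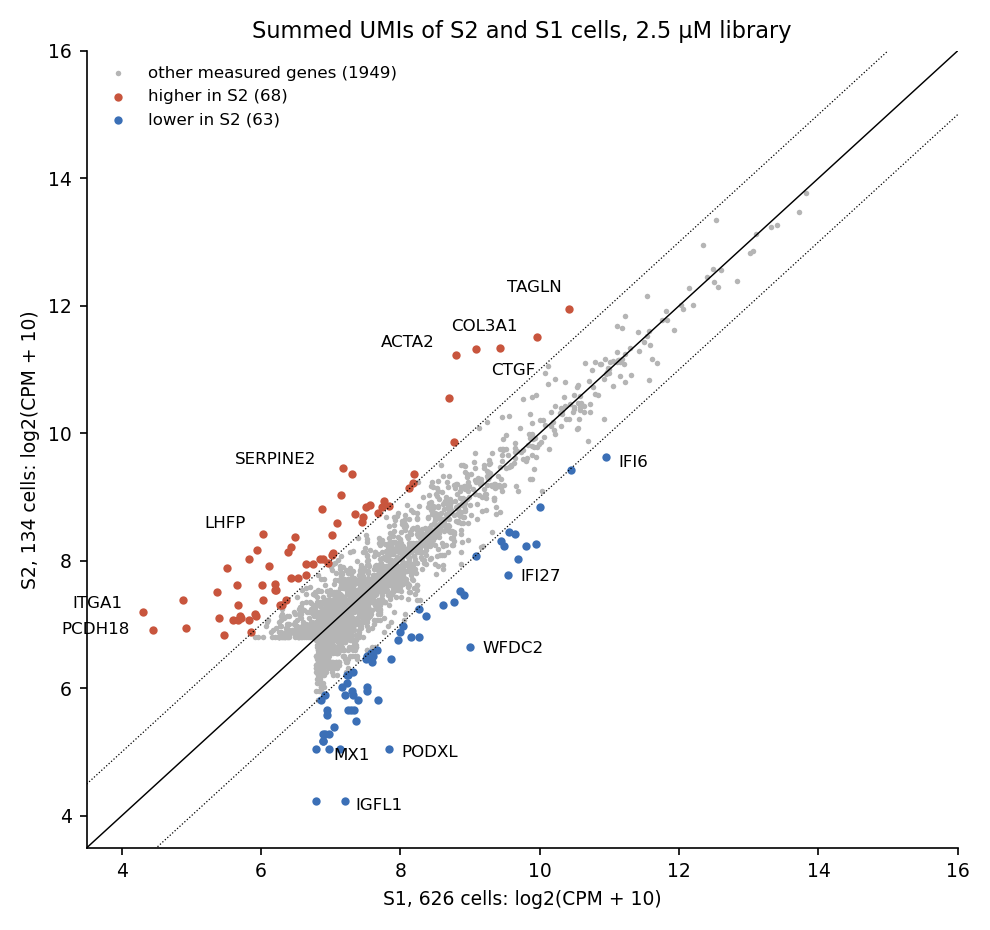
Level of each of 2080 measured genes in the summed S1 cells (horizontal) and the summed S2 cells (vertical) of the 2.5 µM library, as log2(CPM + 10). The solid line marks equal levels and the dotted lines a difference of 1; red points are the 68 higher genes, blue points the 63 lower genes, and ACTA2, COL3A1, CTGF and TAGLN lie above the upper line at high levels.

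The letters upstream of 3 measured genes are given first, because the lists described below include contractile genes and interferon-induced genes whose promoters are known for short recurring motifs. The CArG box binds serum response factor at contractile genes and was searched as CCWWWWWWGG, where W is A or T. The interferon-stimulated response element (ISRE) has the core GAAANNGAAA, searched on both strands. Each run holds the 170 bases before the start of the gene, 5′ to 3′ on the strand of the gene, from RefSeq (GRCh38.p14), with matches in capitals. ACTG2 (chr2:73892838-73893007, plus strand) codes for enteric smooth muscle actin, IFI27 (chr14:94110566-94110735, plus strand) for an interferon-induced mitochondrial protein, and IFI6 (chr1:27672193-27672362, minus strand) for an interferon-induced inhibitor of apoptosis.
ACTG2: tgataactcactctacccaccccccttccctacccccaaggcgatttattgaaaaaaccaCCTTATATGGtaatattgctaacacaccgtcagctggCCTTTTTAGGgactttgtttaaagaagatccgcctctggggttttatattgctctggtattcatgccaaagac
IFI27: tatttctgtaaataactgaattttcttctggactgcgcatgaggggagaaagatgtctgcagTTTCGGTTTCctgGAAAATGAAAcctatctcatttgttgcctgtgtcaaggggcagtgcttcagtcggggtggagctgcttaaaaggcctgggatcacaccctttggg
IFI6: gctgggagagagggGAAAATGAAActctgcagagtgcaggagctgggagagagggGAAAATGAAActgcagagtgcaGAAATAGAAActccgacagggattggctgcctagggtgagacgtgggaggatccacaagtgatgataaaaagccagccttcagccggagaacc

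Promoter windows of 250 bases before to 50 bases after the start were matched by symbol for 1704 of the 2080 measured genes. The ISRE core stood in 3.57% of all 35116 windows of the table and in all 11 matched members of the interferon list. It stood in 4 of 7 matched members of the class I presentation list. Among the matched genes of the contrast it stood in 4 of 48 lower genes (8.33%) and 2 of 49 higher genes (4.08%), against 3.40% of the measured genes. The CArG box stood in 1.29% of all windows and 2.35% of those of measured genes. It was found in 4 of 49 higher genes (ACTG2, AKAP12, FILIP1L and RND3) and in 2 of 48 lower genes (CAPN2 and CHI3L1). By list it stood in 0 of 7 matched TGF-beta targets, 0 of 10 matched mesenchymal genes and 2 of 11 matched interferon genes (18.2%). These lists have 10, 13 and 14 measured members. TAGLN, in the first 2 of them, had no promoter window and was not searched. The window of ACTA2 held no exact match of the CArG pattern and 1 ISRE core. Sites that deviate from the pattern, or lie outside the window, were not searched. These are matches of letters, and no binding was measured.

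Contractile and cytoskeletal genes stood among the higher genes. ACTA2, smooth muscle actin, was at 436 CPM in S1 and 2388 CPM in S2, 5.47-fold higher (4.93 to 6.08). TAGLN, the actin-binding protein transgelin, was at 1367 and 3953 CPM (2.89-fold, 2.70 to 3.10). CALD1, which codes for caldesmon, an actin-binding regulator of contraction, was at 987 and 2923 CPM (2.96-fold, 2.73 to 3.21). ACTG2 was at 121 and 268 CPM, a difference of 1.08. ACTA2 lies on chromosome 10 from 88935074 to 88991339 (GRCh38, GENCODE 29), minus strand. ACTA2 and ACTG2 have similar sequences, and the sources used here do not say how reads that fit both were counted.

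ACTA2 was not at 1 level across the S2 cells. A UMI of ACTA2 was seen in 63.4% of the S2 cells and 35.1% of the S1 cells. After each cell was thinned to 650 UMIs, which all 760 cells reached, the shares were 51.5% and 22.4%. The S2 cell with most UMIs held 9.74% of the ACTA2 UMIs of its state. TAGLN was seen in 75.4% of the thinned S2 cells and 53.2% of the thinned S1 cells (89.6% and 73.5% before thinning). No cell type without these genes is part of the line, so the part of free RNA in these shares was not tested.

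Secreted matrix proteins formed the next group. COL3A1, the chain of type III collagen, was at 532 CPM in S1 and 2539 CPM in S2 (4.77-fold, 4.33 to 5.27) and was seen in 66.4% of thinned S2 cells and 24.9% of thinned S1 cells (81.3% and 38.7% before thinning). COL5A1, a fibrillar collagen that nucleates fibrils, was at 80.3 and 323 CPM. BGN, the proteoglycan biglycan, was at 46.8 and 250 CPM (5.35-fold, 3.84 to 7.48), and SULF1, a sulfatase that edits heparan sulfate, at 148 and 649 CPM (4.38-fold, 3.62 to 5.32). COL14A1, a collagen on the surface of fibrils, was at 31.4 and 172 CPM. SERPINE2, a secreted inhibitor of serine proteases, was at 135 and 689 CPM (5.09-fold, 4.19 to 6.19). In the list of fibrillar collagens and matrix, 15 of 32 genes were measured, 6 were higher, 1 was lower and the median difference was 0.91. The lower one was SPON1, which codes for F-spondin, a secreted adhesion protein, at 195 CPM in S1 and 46.5 CPM in S2. SPP1, which codes for osteopontin, was at 458 and 716 CPM, under the fold.

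The laminin and collagen IV genes stood higher in S2 without passing the fold. COL4A2 was at 288 and 585 CPM, a difference of 1.00 that fell just short, COL4A1 at 69.1 and 143 CPM, LAMB1 at 118 and 230 CPM, and LAMC1 at 743 and 1227 CPM. Of 7 measured basement membrane genes none was counted and 5 were above 0, with a median of 0.72. TMM scaling, which moves differences up, counts 2 of them as higher, as did adding 1 CPM in place of 10, and leaving out the 5% of cells with most UMIs. Thinning, equal weight per cell and leaving out cells above the median mitochondrial share each counted 1, and the cells under 2000 UMIs alone 3.

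Targets and carriers of TGF-beta included 5 higher genes among 10 measured, none lower, with a median of 0.93. Besides ACTA2 and TAGLN these were CTGF, a matricellular growth factor, at 679 CPM in S1 and 2589 CPM in S2 (3.81-fold, 3.48 to 4.18), CYR61, its relative, at 153 and 416 CPM, and LTBP1, which anchors latent TGF-beta in the matrix, at 109 and 250 CPM. The inhibitors of differentiation ID1 and ID3, which TGF-beta family signals also control, had differences of -0.13 and -0.17. In the mesenchymal list, which shares ACTA2 and TAGLN, 5 of 13 measured genes were higher and none lower, with a median of 0.77. VIM, the intermediate filament vimentin, was at 941 and 1504 CPM (1.60-fold, 1.44 to 1.77), under the fold. THY1, a surface glycoprotein of fibroblasts, was at 41.2 and 148 CPM. In the cells under 2000 UMIs alone, the THY1 difference was 0.14 in place of 1.63.

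The 3 largest positive differences belonged to surface proteins at low levels. ITGA1, the integrin subunit of a collagen receptor, was at 9.77 CPM in S1 and 137 CPM in S2, a difference of 2.89 that rests on 14 and 47 UMIs (13.99-fold, 7.57 to 27.5). EMCN, a sialomucin best known from endothelium, was at 19.5 and 157 CPM (8.04-fold, 5.00 to 13.2), and PCDH18, a protocadherin, at 11.9 and 111 CPM (9.32-fold, 5.13 to 17.6). FZD1, a receptor for Wnt ligands, was at 20.2 and 113 CPM. SEMA3D, a secreted guidance cue, was at 40.5 and 186 CPM, and the heparan sulfate carriers SDC2 and GPC4 had differences of 1.32 and 1.13. Of 13 measured genes of adhesion and guidance, 5 were higher, and 1, the integrin subunit ITGB5, was lower at -1.04. MEST, an imprinted gene expressed in mesoderm, was at 107 and 442 CPM. LHFP, C11orf96 and FAM198B complete the 15 largest positive differences, at 2.39, 2.38 and 2.23. ITGA1 lies on chromosome 5 from 52787896 to 52959210 and EMCN on chromosome 4 from 100395341 to 100880126.

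The serous and Müllerian list held more lower genes, 6, than any other list. WFDC2, which codes for the serum marker HE4, was at 502 CPM in S1 and 90.2 CPM in S2, 5.57-fold lower (3.89 to 8.25). SOX17, a transcription factor of the Müllerian epithelium, was at 131 and 23.3 CPM (5.64-fold lower, 2.80 to 13.3). MSLN, the surface protein mesothelin, was at 109 and 26.2 CPM, KLK5, a secreted kallikrein protease, at 147 and 40.7 CPM, and PAX8, a lineage transcription factor, at 456 and 239 CPM (1.91-fold lower, 1.52 to 2.44), which is under the fold. WT1, a transcription factor that marks serous carcinoma, was at 69.8 and 20.4 CPM, under the 100 CPM of a measured gene, and was not counted. Of the 29 genes of this list in the matrix 11 were measured. Among these 6 were lower, none was higher, and the median was -1.10. SOX17, MSLN and KLK5 reached 100 CPM in S1 alone and were measured through the state where they were higher. CRABP2 went the other way below the fold: this carrier of retinoic acid was at 1103 and 1748 CPM.

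PODXL, the sialomucin podocalyxin of apical membranes, was at 219 CPM in S1 and 23.3 CPM in S2, 9.42-fold lower (4.72 to 22.0), with a UMI in 10.2% of thinned S1 cells and 2.24% of thinned S2 cells (24.9% and 5.97% before thinning). CLDN4, a tight junction claudin, was at 101 and 23.3 CPM, and SLC34A2, a sodium phosphate cotransporter, at 116 and 23.3 CPM. The simple keratins stayed within the fold: KRT8 was at 1491 and 1073 CPM (1.39-fold lower, 1.24 to 1.56) and KRT18 at 653 and 416 CPM (1.57-fold lower, 1.32 to 1.89). DSP, the desmosomal plaque protein, was at 302 and 157 CPM. All 6 measured genes of the epithelial list were below 0, with a median of -0.55, and CLDN4 alone passed the fold. KRT8 had a UMI in 47.0% of thinned S2 cells and 52.9% of thinned S1 cells (65.7% and 75.6% before thinning). IGFL1, a small secreted ligand, had the lowest difference, -2.98, from 137 to 8.73 CPM. CHI3L1, a secreted chitinase-like protein, was at 101 and 8.73 CPM, FAM107A, an actin-associated protein, at 156 and 34.9 CPM, and PTGDS, a prostaglandin synthase, at 152 and 40.7 CPM. In S2 a level of 23.3 CPM stood for 8 UMIs, as for SOX17, and 8.73 CPM for fewer. The differences of PODXL, CLDN4, SLC34A2, IGFL1 and CHI3L1 thus rest on few UMIs in S2.

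Of 14 measured interferon-stimulated genes 3 were lower in S2, none was higher and 13 were below 0, with a median of -0.44. IFI27 was at 736 CPM in S1 and 209 CPM in S2 (3.51-fold lower, 2.76 to 4.52), IFI6 at 1973 and 782 CPM (2.52-fold lower, 2.22 to 2.87), and MX1, an antiviral GTPase, at 108 and 26.2 CPM (4.13-fold lower, 2.12 to 9.21). PARP14, an interferon-induced ADP-ribosyltransferase, was at 109 and 49.4 CPM and fell just short. BST2, the surface protein tetherin, was at 710 and 573 CPM. IFI27 and IFI6 are the genes whose upstream letters are printed above, and GBP1, which has a difference of 0.19, is the member above 0.

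The class I presentation genes followed a like pattern. HLA-B was at 815 CPM in S1 and 250 CPM in S2 (3.26-fold lower, 2.62 to 4.11), and HLA-C at 426 and 154 CPM (2.77-fold lower, 2.09 to 3.74). Their common light chain B2M was at 1653 and 934 CPM, a difference of -0.82. PSME1, a proteasome activator subunit, was at 253 and 116 CPM. Of 9 measured genes 4 were lower and none higher, with a median of -0.82. The HLA heavy chains have similar sequences, and reads could be split between them. BTN3A2, a butyrophilin encoded near the histone genes of chromosome 6, was at 116 and 29.1 CPM.

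The drug's target, repair and cell-cycle genes fixed for their roles are given whatever their values. PARP1 was at 270 CPM in S1 and 172 CPM in S2 (1.57-fold lower, 1.19 to 2.11). BRCA2 had 16 UMIs in S1 and 1 UMI in S2, and its ratio of S2 to S1 was 0.260 with an interval of 0.00621 to 1.68, so no difference was detectable at this depth. CDKN1A, an inhibitor of cell-cycle kinases, had 54 and 8 UMIs (37.7 and 23.3 CPM, interval of the S2 to S1 ratio 0.254 to 1.31). CDKN2A, another such inhibitor, was at 668 and 634 CPM. CD44, a hyaluronan receptor, had 9 UMIs in S1 and 0 in S2, which allows a ratio of up to 2.11.

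Other lists are given more briefly. The PARP and NAD list had 4 measured genes, all below 0 and none past the fold, with a median of -0.80: PARP1, PARP14, QPRT, which makes a precursor of NAD, and NMNAT2, which makes NAD, the last at 292 and 143 CPM. Of 4 measured hypoxia targets 1 was lower, NDRG1 (149 and 49.4 CPM), a gene induced by hypoxia, and the median was -0.69. In the S100 and annexin list 4 of 13 measured genes were lower: S100A16, S100A6, S100A10 and S100A1, with differences of -1.24, -1.17, -1.04 and -1.02. TMM scaling counts 2 of the 4. Endoplasmic reticulum chaperones stood slightly above 0, with none of 13 past the fold, a median of 0.41 and MANF highest at 0.85. Ribosomal protein genes (74 measured) had a median of 0.00, and nuclear respiratory chain genes (57 measured) of 0.01. The 13 mitochondrially encoded genes had a median of -0.14, which was 0.15 among cells at or under the median mitochondrial share, and 0.04 among cells under 2000 UMIs. NQO1, a quinone reductase controlled by NRF2, was higher (97.0 and 239 CPM), while SQSTM1 and SLC7A11, which NRF2 also controls, were lower at -1.11 and -1.28. Of 12 measured NRF2 targets 1 was higher and 2 were lower.

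Markers of other cell types were read for both states. Of the 8 fibroblast markers 4 are in the matrix: COL1A1 was at 132 and 512 CPM in S1 and S2, PDGFRB at 4.89 and 66.9 CPM, THY1 as given above, and PDGFRA was listed at 0. The part of other cells in the matrix and contractile differences was not tested. Of 7 endothelial markers 5 are in the matrix: CDH5 and KDR were listed at 0, VWF had 9 UMIs in S1 and 0 in S2, TIE1 was at 191 and 265 CPM and EMCN as above. CD68, the 1 leukocyte marker of 12 in the matrix, was listed at 0. Of the carcinoma markers, EPCAM and MUC16 were listed at 0 in both states, and KRT7 was at 22.3 and 17.5 CPM. KRT19 was at 34.2 and 5.82 CPM. In this library a gene is listed either at 0 (1880 genes) or in at least 15 of the 1561 cells, so a gene at 0 is not a measured absence. SOX17 and WT1 were at 23.3 and 20.4 CPM in S2. Of the 9 carcinoma markers, KRT8, KRT18 and PAX8 thus stood above 100 CPM in both states, and SOX17 in S1 alone.

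Seen cell by cell, the states separated by the genes that define the contrast, which is built into that choice. The 68 higher genes made up 0.962% to 8.30% of the UMIs of an S2 cell (median 2.91%) and 0% to 5.99% of an S1 cell (median 1.03%). The 63 lower genes made up 0.119% to 1.89% of an S2 cell (median 0.735%) and 0.387% to 5.06% of an S1 cell (median 1.95%). The ranges overlap in both measures. All 134 S2 cells had more UMIs of the higher than of the lower set, and 100 of the 626 S1 cells (15.97%) did too. Among the 801 cells without a state 228 did (28.5%).

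**Figure D2:**
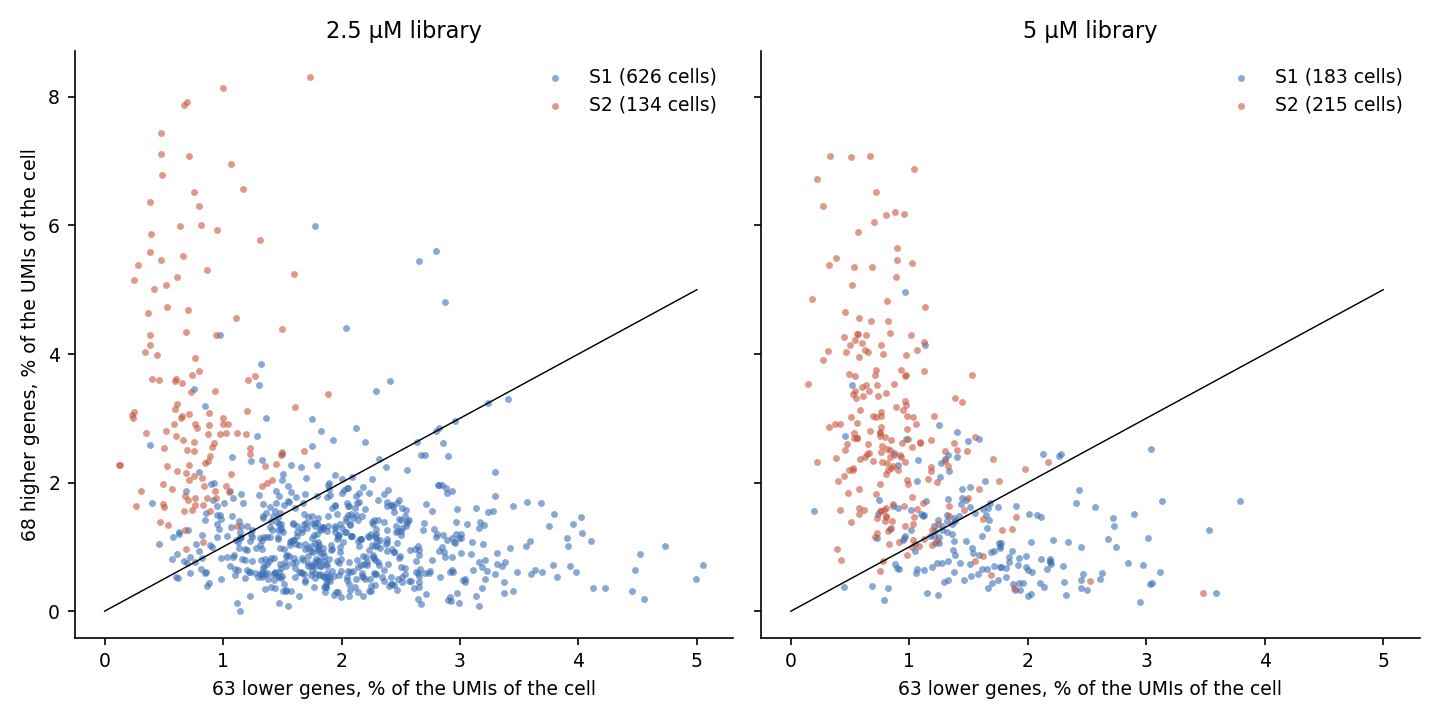
Each point is a cell, placed by the percent of its UMIs that come from the 63 lower genes (horizontal) and the 68 higher genes (vertical), in the 2.5 µM library that defined the sets and in the 5 µM library; the line marks equal shares. At 2.5 µM all 134 S2 cells (red) and 100 of 626 S1 cells (blue) lie above the line, and at 5 µM 197 of 215 S2 cells and 55 of 183 S1 cells.

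The same contrast was read in the 5 µM library, whose 215 S2 and 183 S1 cells are other cells, labelled by the same authors. There 76 of 2145 measured genes were higher in S2 (3.54%) and 61 lower (2.84%). Of the 68 genes higher at 2.5 µM, 37 were also higher at 5 µM (54.4% of the first list, 48.7% of the second). Of the 63 lower genes 24 were also lower (38.1% and 39.3%). At 5 µM 11 of the 68 and 12 of the 63 were not measured and could not be counted. The signs and medians that follow include them. No gene passed the fold in opposite directions. All 68 higher genes were above 0 at 5 µM and 60 of the 63 lower genes were below 0, while 68.6% of all measured genes had the same sign in both libraries. The median difference at 5 µM was 1.07 for the higher genes (1.38 at 2.5 µM) and -0.93 for the lower genes (-1.35).

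**Figure D3:**
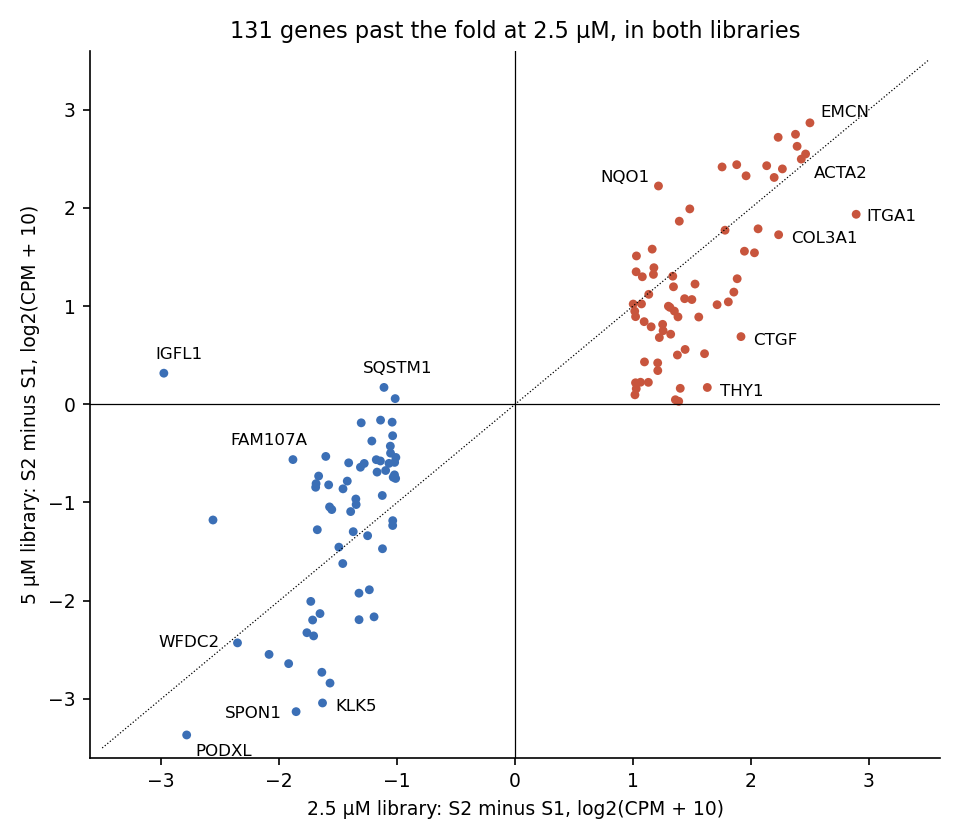
Difference S2 minus S1 of log2(CPM + 10) at 2.5 µM (horizontal) and 5 µM (vertical) for the 131 genes past the fold at 2.5 µM, red higher and blue lower, with a dotted line of equal differences. All 68 red points lie above 0 on the vertical axis and 60 of 63 blue points below 0; IGFL1, at 1.79 and 4.68 CPM at 5 µM, and SQSTM1 are among the 3 that do not.

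ACTA2 and EMCN had similar differences in both libraries, while those of CTGF, CYR61 and THY1 were smaller at 5 µM. ACTA2 was at 335 CPM in S1 and 1936 CPM in S2 at 5 µM (5.78-fold higher, 4.95 to 6.78), and EMCN at 48.3 and 415 CPM (8.59-fold, 5.77 to 13.3). COL3A1 was at 861 and 2873 CPM (3.34-fold, 3.02 to 3.70). CTGF was at 1184 and 1914 CPM, a difference of 0.69 against 1.92 at 2.5 µM, CYR61 had a difference of 0.03 against 1.39, and THY1 one of 0.17 against 1.63. The median of the TGF-beta list was 0.10 over 12 measured genes at 5 µM, with 3 higher and 1 lower. That of the mesenchymal list was 0.39 against 0.77 at 2.5 µM, with 2 of 13 measured genes higher. Fibrillar collagens and matrix had 0.60 against 0.91, with 7 of 17 higher and 1 lower. The basement membrane list had -0.02 against 0.72, and the adhesion and guidance list -0.35 against 0.54. Each median at 5 µM is over the members measured at 5 µM, which need not be those measured at 2.5 µM. For adhesion and guidance these were 17 genes against 13. The medians of the 2 libraries are thus not over the same genes. The difference between the libraries was not tested, since each has 1 library.

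Epithelial genes were further apart at 5 µM than at 2.5 µM, and HLA genes less so. KRT8 was at 965 CPM in S1 and 294 CPM in S2 at 5 µM (a difference of -1.68 against -0.47), KRT18 at 247 and 87.4 CPM (-1.40 against -0.64), and DSP at 333 and 70.3 CPM. Of 7 epithelial genes measured at 5 µM, against 6 at 2.5 µM, 5 were lower, with a median of -1.61. PODXL was at 383 and 28.1 CPM with a difference of -3.37 against -2.78 at 2.5 µM, and WFDC2 at 363 and 59.3 CPM, with -2.43 against -2.35. The serous and Müllerian list had a median of -0.38 over its members measured at 5 µM, against -1.10 over those measured at 2.5 µM. At 5 µM 4 of 11 measured genes were lower and 1 was higher. HLA-B was at 408 and 242 CPM (-0.73 against -1.67), and none of 8 measured class I genes passed the fold. IFI6 was at 478 and 119 CPM and IFI27 at 158 and 23.4 CPM, with differences of -1.92 and -2.33. NQO1 was at 104 and 522 CPM, a difference of 2.22 against 1.22.

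The S1 cells of 2.5 and 5 µM differed past the fold in 56 of 2128 measured genes (2.63%), and the S2 cells in 85 of 2079 (4.09%). These values compare libraries as well as doses. Between the S2 cells of 5 and 10 µM, 382 of 2312 genes passed it (16.5%). ACTA2 was at 99.5 CPM in S2 at 10 µM and 444 CPM at 20 µM, while WFDC2 was at 566 and 731 CPM. PODXL, SOX17 and IFI27 were at 31.3, 32.0 and 34.1 CPM in S2 at 10 µM, against 28.1, 15.6 and 23.4 CPM in S2 at 5 µM. SERPINE2 was at 531 CPM and CTGF at 2524 CPM in S2 at 10 µM. The cells called S2 at 2.5 and 5 µM thus shared levels of ACTA2 and WFDC2 that the cells called S2 at 10 µM did not have. By the shares above, 76.0% of the S2 cells at 10 µM had more UMIs of the higher than of the lower set, against 91.6% at 5 µM and 13.1% of the S1 cells at 1 µM. It was 56.8% of the S2 cells at 20 µM. In the 10 µM library 91.8% of the S4 cells and 38.4% of the S3 cells did too, so the measure is not particular to S2.

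**Figure D4:**
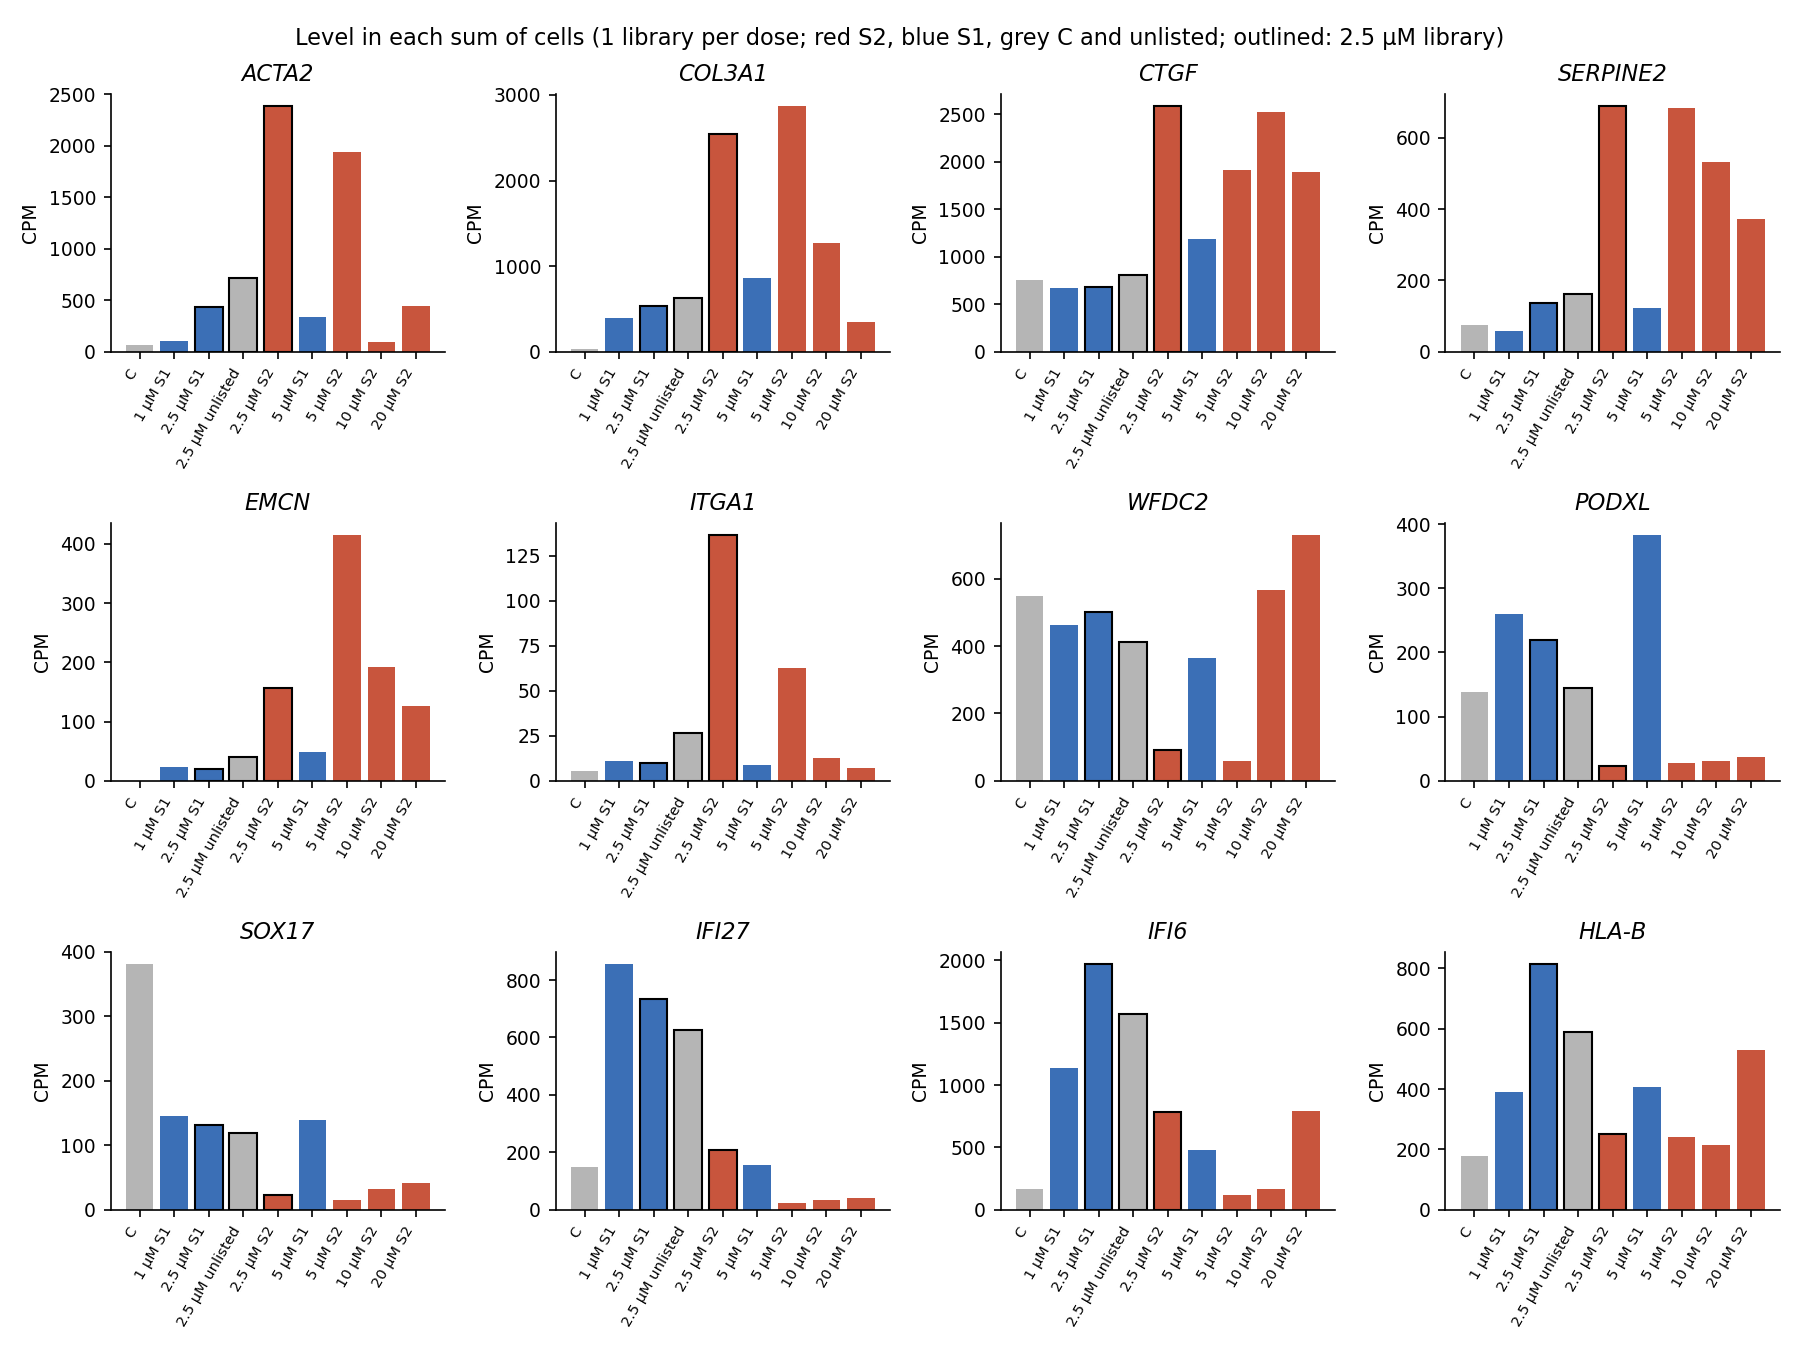
CPM of 12 genes in the summed cells of untreated Kuramochi (C), of S1 at 1, 2.5 and 5 µM, of cells without a state at 2.5 µM, and of S2 at 2.5, 5, 10 and 20 µM; each bar is 1 sum of 1 library, without replicates, and each axis starts at 0. ACTA2, SERPINE2 and COL3A1 are highest in S2 at 2.5 and 5 µM, and WFDC2 is low there (90.2 and 59.3 CPM) but at 566 CPM in S2 at 10 µM.

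Levels in S1 at 2.5 µM can be set beside the lower doses. IFI6 was at 165 CPM in C, 1136 CPM in S1 at 1 µM and 1973 CPM in S1 at 2.5 µM, and its 782 CPM in S2 at 2.5 µM lay above the level in C. IFI27 was at 149 and 857 CPM in C and in S1 at 1 µM, and its 209 CPM in S2 lay nearer to C. HLA-B was at 180 CPM in C and 391 CPM at 1 µM, against 250 CPM in S2 at 2.5 µM. SOX17 was at 382, 145 and 131 CPM in C, S1 at 1 µM and S1 at 2.5 µM, so its 23.3 CPM in S2 lay below all 3. COL3A1 was at 32.8 CPM in C and 390 CPM in S1 at 1 µM. The cells without a state lay between S1 and S2 for ACTA2 (720 CPM), EMCN (40.8 CPM), PODXL (144 CPM), IFI6 (1571 CPM) and HLA-B (591 CPM), in each case nearer to S1.

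The differences were also read by position, for the 2044 measured genes with a GENCODE 29 position. Windows of 10 Mb with at least 8 measured genes numbered 88, and the first 10 Mb of chromosome 17 had the lowest median in both libraries, -0.66 at 2.5 µM and -0.74 at 5 µM. This window was picked out after its values were seen. Of its 23 measured genes 22 were below 0 in each library, and 6 were past the fold at 2.5 µM, among them TAX1BP3, KIF1C, ACADVL, CTDNEP1 and TRAPPC1. The exception at 2.5 µM was MYH10, a nonmuscle myosin heavy chain, at 103 CPM in S1 and 175 CPM in S2. ACADVL, an enzyme of fatty acid oxidation, was at 297 CPM in S1 and 102 CPM in S2. RPL26, in the same window, had a difference of -0.66, and ribosomal protein genes together had a median of 0.00. The part of position in these differences was not tested. On chromosome 1, 234 of 302 measured genes were below 0 (77.5%), with a median of -0.23, against a median of 0.00 over all measured genes. PARP1, IFI6, CHI3L1 and the 4 lower S100 genes lie there.

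All 140 genes of the chromosome 17 window together made up 0.904% of the UMIs in S1 and 0.554% in S2 (exact binomial 95% interval 0.529 to 0.579). At 5 µM the values were 0.720% and 0.450%, in C 0.986%, in S1 at 1 µM 0.706% and in S2 at 10 µM 1.24%. The rest of chromosome 17 did not differ in that way, with 3.80% in S1 and 3.72% in S2 at 2.5 µM. Among cells of at least 2000 UMIs the S1 cells spread over 2 ranges: 107 of 209 (51.2%, 44.2 to 58.2) lay below 0.8%, with 17 between 0.7% and 0.9%. Of the 58 such S2 cells 51 lay below 0.8% (87.9%, 76.7 to 95.01), with 6 between 0.7% and 0.9%. The limit of 0.8% was set after seeing the values. At 5 µM 66 of 107 S1 cells and 110 of 122 S2 cells lay below it. Copy number was not measured.

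**Figure D5:**
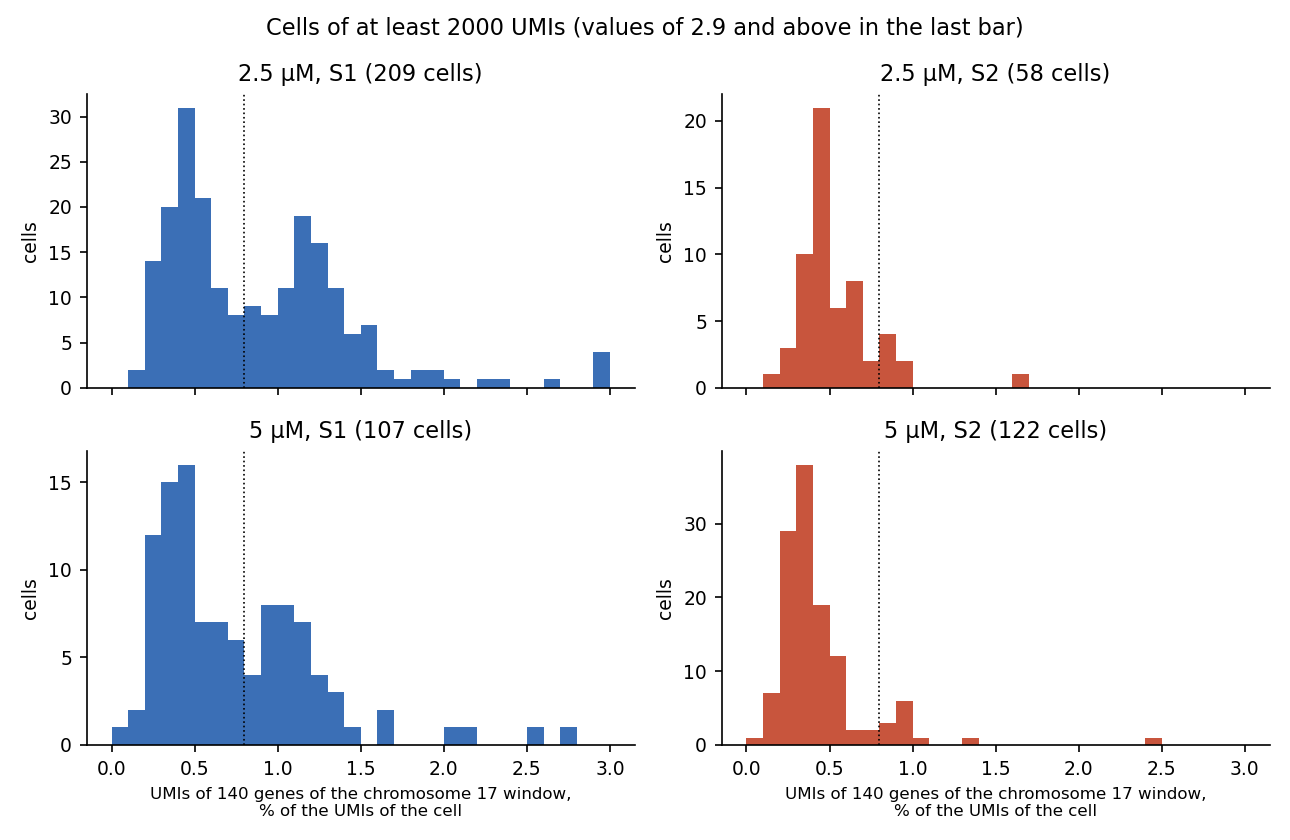
Histograms of the percent of the UMIs of a cell from 140 genes of the chromosome 17 window, for cells of at least 2000 UMIs in S1 (blue) and S2 (red) at 2.5 µM (top) and 5 µM (bottom); the vertical axis counts cells and the dotted line marks 0.8%. S1 cells at 2.5 µM lie on both sides (107 of 209 below), and 51 of 58 S2 cells lie below.

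How close genes lay to the fold can be read from those beside it. PRTG, at 69.1 CPM in S1 and 148 CPM in S2, was just inside and COL4A2 just outside. Among the lower genes TRAPPC1 (297 and 143 CPM) was just inside and PARP14 just outside. The 30 genes of the largest differences in the 2 directions all remained on their side of 0 under each alternative that was computed, and 28 remained past the fold in all of them. The changes of the level filter alter which genes are counted and leave each difference as it was, so they could not move these genes. COL14A1 (0.75) and SLC34A2 (-0.32) fell short among the cells under 2000 UMIs. So did ACADVL (-0.86), HLA-C (-0.84) and COL5A1 (0.97). WT1, which was not measured and so not counted, had -0.26 there. SDC2, GPC4, NQO1, PSME1, SQSTM1 and SLC7A11 fell short under at least 1 alternative, with values nearest 0 of 0.82, 0.89, 0.77, -0.84, -0.76 and -0.82. The same held for S100A1 (-0.73), S100A6 (-0.95), S100A10 (-0.70) and NDRG1 (-0.71).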

How the data were processed

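Single-cell libraries of Kuramochi were made by inDrop, 1 per dose of olaparib. The deposited matrix holds UMI counts per gene and cell, without normalization, and in the authors' metadata table UMIs and genes per cell are counts, the mitochondrial share is a fraction and the state is a label. Seurat 2.3.2 and the genome builds hg38 and GRCh38 appear in the submitters' processing notes. The aligner, the counter, the annotation, the cell filters and the way states were assigned were not given in the sources used here. All 760 listed cells of the 2.5 µM library were matched to the matrix by name, with equal UMI totals. All were kept, and no doublet caller was run.

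Counts were summed per state with Python 3.11.15 and scaled to CPM of the sum, and 10 CPM was added before log2. Folds have exact conditional 95% intervals from Poisson counts and shares have exact binomial ones, which cover counting error only. With 1 library there are no replicates and no test. The computation was tested on simulated data. TMM factors came from edgeR 4.0.16. Alternatives were the scaling, the added CPM, the level filter, equal weight per cell, thinning to 650 UMIs and subsets of cells. The subsets by depth (2000 UMIs), the chromosome 17 window and the removal of the cell with most UMIs of a gene were chosen after seeing the data.

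The members and all 43 gene lists were chosen with earlier results of these data known. Genes were named by rule: the 15 largest differences in each direction among measured genes with at least 20 UMIs in the higher state, the 4 largest of each list with at least 3 measured members, and 18 genes fixed for their roles. Others named in the report, such as those beside the fold, of the chromosome 17 window, ACTG2, LTBP1, B2M and those with a promoter match, were chosen after their values were seen, and only part of the list members are given. Some genes that the rule selects are not reported here.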

Additional observations from a re-analysis of the deposited data

Results flagged for a closer look

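Named genes whose S2 to S1 ratio lay off 1 in opposite directions in the 2.5 and 5 µM libraries, with both counting intervals off 1, numbered 2. FTH1, the heavy chain of ferritin, had a difference of -0.74 at 2.5 µM (3041 CPM in S1 and 1812 CPM in S2) and of 0.15 at 5 µM (3406 and 3780 CPM). MT-ATP8, a subunit of the mitochondrial ATP synthase, had -0.21 at 2.5 µM (1584 and 1373 CPM) and 0.15 at 5 µM (2159 and 2398 CPM). Under the alternatives the MT-ATP8 difference at 2.5 µM ran from -0.42 to 0.37, above 0 with equal weight per cell (0.10) and among cells under 2000 UMIs (0.37), while that of FTH1 stayed below 0, from -0.88 to -0.64. With 1 library per dose the difference between the libraries was not tested, and none of the 4 differences reached the fold.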

How the results depend on the processing

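No paired analysis was possible because each dose has 1 library and no test was run. Of the 68 higher and 63 lower genes, the counts became 41 and 40 with 50 CPM added, 43 and 26 among genes of at least 200 CPM (944 genes), and 165 and 373 with a minimum of 20 UMIs only (8622 genes). Thinning each cell to 650 UMIs gave 137 and 140, and the cells under 2000 UMIs, a subset added after seeing the data, gave 167 and 125; both rest on fewer UMIs. Without cells above the median mitochondrial share 98 genes were lower and 73 higher, and the cause was not tested. The other alternatives stayed within 1.5 times. Among the 142 named genes and the list medians, no value past the fold changed sign under those of the 13 alternatives computed for it. The changes of the level filter leave these values as they were and could not change a sign. The signs of other counted genes were not followed gene by gene. The median of the chromosome 17 window ran from -0.72 to -0.47. Among the cells under 2000 UMIs 51 of 142 named genes moved beyond their counting interval. With 134 S2 cells, a gene at 100 CPM rests on few UMIs, and 1 library gives no spread between cultures.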
